A study of Homo sapiens with 9 samples.

Results

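The COPII coat and its partners carry newly made proteins out of the endoplasmic reticulum (ER). The genes described here are the 4 SEC24 paralogs (SEC24A, SEC24B, SEC24C and SEC24D), SEC23A, SEC23B, SEC31A, SEC13, SAR1B and SEC16A. They were chosen by symbol: every probe set that the platform annotation pairs with 1 of these 10 symbols was taken, which gave 17 of the 22215 probe sets tested. SEC24D and SEC23B have 3 probe sets each, SEC24A, SEC23A and SEC31A have 2 each, and the other genes have 1. Probe sets were kept apart, because those of SEC24D differ.

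LNCaP, the cell line profiled here on Affymetrix arrays, is an established human prostate cancer line that responds to androgen. Before treatment every culture was kept for 2 days in 10% serum stripped of steroids with charcoal. Then 3 cultures received ethanol and DMSO (labelled vehicle), 3 received 1 nM R1881, a synthetic androgen, with DMSO (labelled R1881), and 3 received 1 nM R1881 with 20 µM gedunin, a plant limonoid known to inhibit HSP90 function. Arrays within a group are marked as biological replicates, and no group had gedunin alone. Treatment lasted 24 h in every protocol text, but array titles say 6 h for the group labelled R1881, so its time is not settled by the labels.

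Androgen genes went against these labels. KLK3, which encodes prostate-specific antigen, measured 11825 ± 243 on the arrays labelled vehicle and 1049 ± 40.1 on the arrays labelled R1881 (intensity of probe set 204582_s_at, mean ± SD, n = 3). FKBP5 and TMPRSS2, both induced by androgen in prostate cells, were lower there as well. FKBP5 was lower by 40.2-fold, an approximate value because its mean there, 45.1, was dimmer than any array's median. TMPRSS2 was lower by 5.59-fold in probe set 205102_at and 16.9-fold in 211689_s_at. Groups are therefore named by their labels, and every direction below that uses the arrays labelled vehicle or labelled R1881 rests on labels that these genes contradict. Array medians lay between 52.4 and 54.5. Markers of other cell types were counted by the brightest probe set of each gene. Of these, 0 of 2 measured basal, 3 of 4 fibroblast, 1 of 3 leukocyte and 1 of 2 neuroendocrine genes reached the lowest array median. Some dimmer probe sets of the same fibroblast genes lay under it in every group. The log2 differences of all probe sets of these markers lay between -0.20 and 0.17 in the 3 comparisons. The 7 measured luminal prostate markers summed to 29917 to 31940 on the arrays labelled vehicle, 5440 to 6102 on those labelled R1881 and 14049 to 15503 with gedunin. KLK3, KRT18 and KLK2 carry most of this sum, and not every marker moved with it. HOXB13 rose 1.51-fold from labelled vehicle to labelled R1881 and was 2.12-fold lower with gedunin than in the latter, and ACP3 did not pass in the first comparison (-0.12) and was 6.11-fold lower in the second. The part of these shifts in the COPII results was not tested.

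In the COPII pathway, SAR1 is a small GTPase that inserts into the ER membrane once loaded with GTP. It recruits SEC23 and SEC24 as the inner coat, in which SEC23 is the GTPase-activating protein for SAR1 and SEC24 binds the export signals of cargo. SEC13 and SEC31 then form the outer cage, and SEC16 organises the ER exit sites where this happens. Luminal prostate cells are secretory cells that send large amounts of protein through this route.

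Of the 17 probe sets, 15 were lower on the arrays labelled R1881 than on those labelled vehicle and 0 were higher (limma, Benjamini-Hochberg adjusted p under 0.05 over all probe sets). Over all 22215 probe sets, 27.0% were called in this comparison and 12.2% were called lower. The 15 probe sets cover 9 of the 10 genes, SEC23A being the exception, and in a second quantile normalization SEC23A probe set 212887_at was called higher. With gedunin, 14 of 17 were higher than on the arrays labelled R1881 and 0 were lower, against 24.3% called and 12.4% called higher over all probe sets. Between gedunin plus R1881 and labelled vehicle, 8 were lower and 2 higher, against 23.5% called, 10.6% lower and 12.9% higher. The median log2 fold change of the 17 was -0.75 in the first comparison, 0.57 in the second and -0.17 in the third, where the medians of all probe sets were 0.00021, -0.0094 and -0.011. The values of the groups did not overlap for 15 probe sets lower and 2 higher in the first comparison (36.8% of all probe sets did not overlap, 17.1% lower and 19.8% higher). This held for 15 higher in the second (34.6% of all, 16.6% higher and 18.0% lower), and for 8 lower and 4 higher in the third (35.5% of all, 17.7% lower and 17.8% higher). These comparisons share arrays, so a low group labelled R1881 enters both the first and the second. Total RNA came from whole cultures, so RNA per cell and the share of cells that express a gene cannot be told apart.

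**Figure D1:**
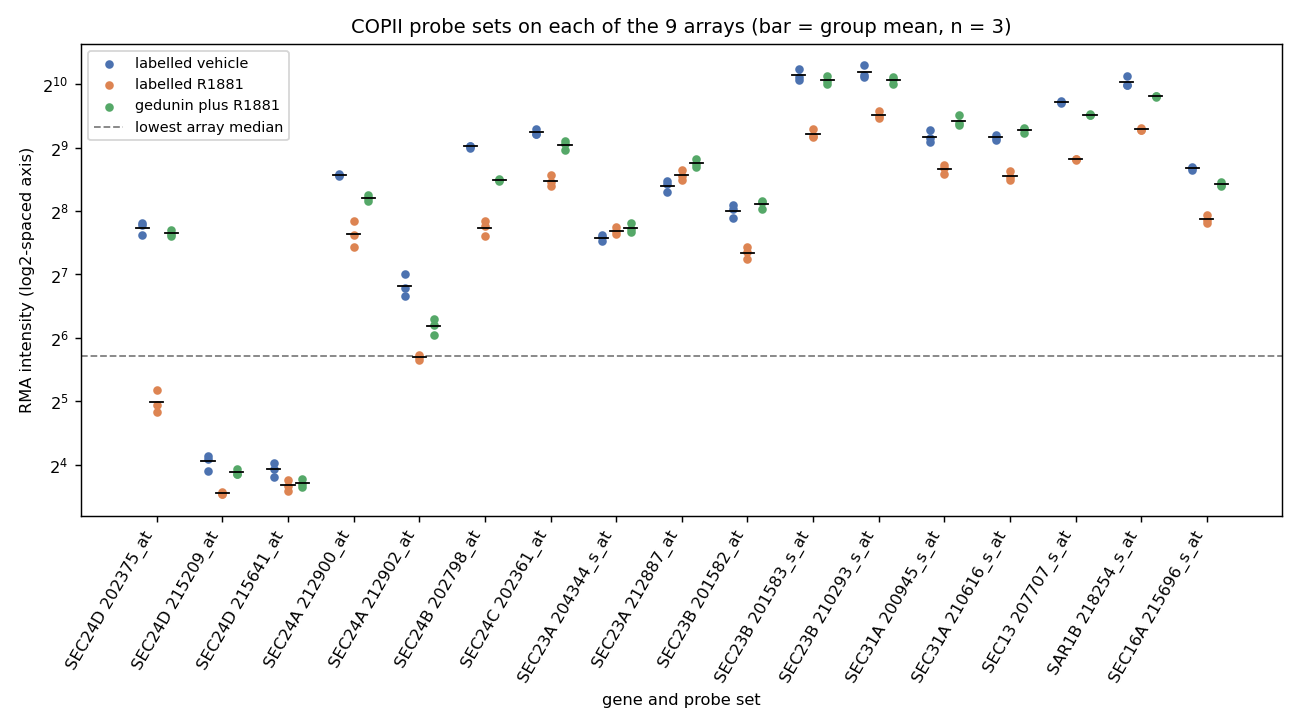
RMA intensity (log2-spaced vertical axis) of each of the 17 probe sets on each of the 9 arrays, in 3 groups; short bars are group means (n = 3) and the dashed line is the lowest array median of 52.4. The 2 dimmer SEC24D probe sets lie far below this line in every group, and the brightest falls below it on the arrays labelled R1881 alone, at 31.9. The mean of SEC24A probe set 212902_at on those arrays, 51.8, lies just under it.

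Among the cargo adaptors of the inner coat, SEC24D changed most by its brightest probe set, though not by its dimmer ones. Its brightest probe set, 202375_at, measured 224, 197 and 220.0 on the 3 arrays labelled vehicle, 30.8, 28.5 and 36.4 on those labelled R1881 and 209, 195 and 199.8 with gedunin plus R1881. The arrays labelled R1881 stand apart below both other groups, which overlap. The log2 difference was -2.75 ± 0.09 (SE, adjusted p = 1.06e-10) between labelled R1881 and labelled vehicle, 6.73-fold lower, and 2.67 ± 0.09 (adjusted p = 2.86e-10) between gedunin plus R1881 and labelled R1881, 6.35-fold higher. Both folds are approximate, because the mean for labelled R1881, 31.9 ± 4.07, was dimmer than any array's median. Gedunin arrays averaged 94.3% of the labelled vehicle mean, a log2 difference of -0.08 ± 0.09 with a 95% interval of -0.27 to 0.10, which did not pass (adjusted p = 0.587).

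The other SEC24D probe sets told less. Probe set 215209_at averaged 16.6 ± 1.41, 11.7 ± 0.142 and 14.7 ± 0.518 in the groups labelled vehicle, labelled R1881 and gedunin plus R1881 (n = 3), and 215641_at averaged 15.2 ± 1.21, 12.8 ± 0.810 and 13.1 ± 0.582. All these means lie far under the lowest array median of 52.4, so little can be read from them. In the first comparison both were called lower, at log2 -0.50 and -0.25, far less than the -2.75 of 202375_at. The call of 215641_at ended with an offset, at log2 -0.12 (adjusted p = 0.0552), and without vehicle replicate 2 or 3 or R1881 replicate 3, at log2 -0.20, -0.25 and -0.21. In the second comparison 215209_at was called at 0.33 and 215641_at was not (0.04, adjusted p = 0.773). Between gedunin plus R1881 and labelled vehicle they were at -0.17 (adjusted p = 0.0946) and -0.21 (adjusted p = 0.0496). The latter call ended in a replicate block, in 2-group fits, with an offset, after a second quantile normalization, and on leaving out any 1 gedunin array, vehicle replicate 2 or 3, or R1881 replicate 2. The log2 difference of 202375_at over 215209_at averaged 3.69, 1.44 and 3.77 in the 3 groups in this order, and that over 215641_at 3.81, 1.32 and 3.94. Exact permutation over the 3 groups gave p = 0.025 for 215209_at and 0.0179 for 215641_at. Neither pair passed (adjusted p = 0.05 for both). Because both dimmer probe sets stay near the low end of the scale, these differences largely restate the change of 202375_at, and nothing is drawn from this test. The split between SEC24D probe sets was known from earlier results of these data.

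SEC24B, a second cargo adaptor, had the next largest fall among brightest probe sets. Probe set 202798_at measured 524, 522 and 512 on the arrays labelled vehicle, 217, 194 and 229 on those labelled R1881 and 362, 359 and 357 with gedunin. No 2 of the 3 groups overlapped, and the gedunin arrays lay between the others. The log2 differences were -1.29 ± 0.06 (adjusted p = 6.68e-09), 0.76 ± 0.06 (adjusted p = 1.44e-06) and -0.53 ± 0.06 (adjusted p = 3.67e-05) in the 3 comparisons in order, so the level with gedunin was 69.2% of that labelled vehicle.

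SEC24A, the closest relative of SEC24B, showed the same order. Its probe set 212900_at measured 382, 376 and 379 on the arrays labelled vehicle, 172, 197 and 230.0 on those labelled R1881 and 305, 294 and 285 with gedunin plus R1881. Again no groups overlapped, and the arrays labelled R1881 were the most spread. The log2 differences were -0.93, 0.57 and -0.36, with adjusted p = 2.89e-06, 0.000257 and 0.00727. The dimmer probe set, 212902_at, averaged 113 ± 14.1, 51.8 ± 1.48 and 72.9 ± 6.49 in the 3 groups in the same order. Its log2 differences were -1.12, 0.49 and -0.63, all called. Its mean for labelled R1881 lay just under the lowest array median, so the differences that use that group are approximate. The difference between both SEC24A probe sets did not pass over the groups (exact permutation p = 0.279, adjusted p = 0.279).

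SEC24C, which with SEC24D forms the other SEC24 subfamily, moved less than SEC24D probe set 202375_at. Probe set 202361_at measured 594, 596 and 629 on the arrays labelled vehicle, 379, 350.5 and 338 on those labelled R1881 and 534, 498 and 551 with gedunin. The groups did not overlap. SEC24C was 1.70-fold lower on the arrays labelled R1881 than on those labelled vehicle (adjusted p = 9.45e-07) and 1.48-fold higher with gedunin than on the arrays labelled R1881 (adjusted p = 1.83e-05). The remaining difference from labelled vehicle, -0.20 ± 0.06, was called at adjusted p = 0.0355, but leaving out gedunin replicate 1 or 2, or any 1 array labelled vehicle, ended that call (adjusted p from 0.0577 to 0.141).

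The 4 SEC24 genes were compared with each other through the log2 difference of their brightest probe sets on each array. Between labelled R1881 and labelled vehicle, SEC24D fell by 1.82 more than SEC24A, by 1.46 more than SEC24B and by 1.98 more than SEC24C, with exact permutation p = 0.00357, 0.00357 and 0.00714 over the 3 groups (adjusted p = 0.00833, 0.00833 and 0.01 over 7 paralog pairs). The value 0.00357 is the smallest p that the 1680 arrangements of 9 arrays allow. SEC24B and SEC24C also differed (adjusted p = 0.01), SEC24B having fallen by 0.52 more. The difference of SEC24A from SEC24B, 0.35 in the same comparison, did not pass (adjusted p = 0.0542), nor did that from SEC24C, -0.17 (adjusted p = 0.496). These pairs were added after the values were seen.

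SEC23A and SEC23B encode alternative forms of the inner coat subunit that activates the GTPase of SAR1. SEC23B probe set 210293_s_at measured 1111, 1259 and 1130.3 on the arrays labelled vehicle, 727, 709 and 767 on those labelled R1881 and 1033, 1114 and 1087 with gedunin. The arrays labelled R1881 were the low group, and the others overlapped. Probe set 201583_s_at averaged 1130.1 ± 66.6, 596 ± 28.5 and 1072 ± 43.9 in this order of groups, and 201582_at 256 ± 18.5, 162 ± 11.2 and 277 ± 12.3. All 3 SEC23B probe sets were lower on the arrays labelled R1881 than on those labelled vehicle, at -0.67, -0.92 for 201583_s_at and -0.66 for 201582_at (adjusted p from 1.75e-07 to 1.33e-05). All were higher with gedunin than on the arrays labelled R1881, at 0.55, 0.85 and 0.77 in the same order. None passed between gedunin plus R1881 and labelled vehicle in limma, with 95% intervals of -0.25 to 0.03, -0.21 to 0.06 and -0.04 to 0.27 on the log2 scale and differences of -0.11, -0.08 and 0.12.

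SEC23A was the 1 gene without a lower call. Its brighter probe set, 212887_at, measured 315, 354 and 344 on the arrays labelled vehicle, 361, 375 and 402 on those labelled R1881 and 454, 427 and 414 with gedunin plus R1881. Here the group labelled vehicle was the lowest and the gedunin group the highest, with no overlap. The first difference, 0.17 ± 0.07, did not pass (adjusted p = 0.0832, though it was called at log2 0.19 after a second quantile normalization), nor did the second, 0.19 ± 0.07 (adjusted p = 0.0599). The second was called with bright probe sets alone, with an intensity trend, with an offset and without R1881 replicate 3 (adjusted p = 0.0349, 0.0379, 0.0388 and 0.032). In the third, gedunin plus R1881 was 1.28-fold higher than labelled vehicle (adjusted p = 0.00142). The second SEC23A probe set, 204344_s_at, averaged 191 ± 7.11, 207 ± 6.96 and 214 ± 10.6 in the same order of groups. It passed in none of the 3 limma comparisons, at 0.11, 0.05 and 0.16 (adjusted p = 0.198, 0.68 and 0.0749), though the last was called with bright probe sets alone (adjusted p = 0.0418) and with an offset (adjusted p = 0.0392). The difference between both SEC23A probe sets varied with the group, at 0.82, 0.87 and 1.01 (exact permutation p = 0.00357, adjusted p = 0.025), the 1 pair of probe sets that passed of 7 tested, the SEC24D pairs included. After a second quantile normalization 5 of the 7 passed, and 2 with an offset. Both SEC23B pairs were at adjusted p = 0.05 and the SEC31A pair at 0.279. Leaving out R1881 replicate 3 left 0 such pairs, and leaving out vehicle replicate 1 or vehicle replicate 3 gave 3 and 4. Between labelled R1881 and labelled vehicle, SEC23A stood 0.84 higher relative to SEC23B on the log2 scale (exact permutation p = 0.00357 over the 3 groups, adjusted p = 0.00833).

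**Figure D2:**
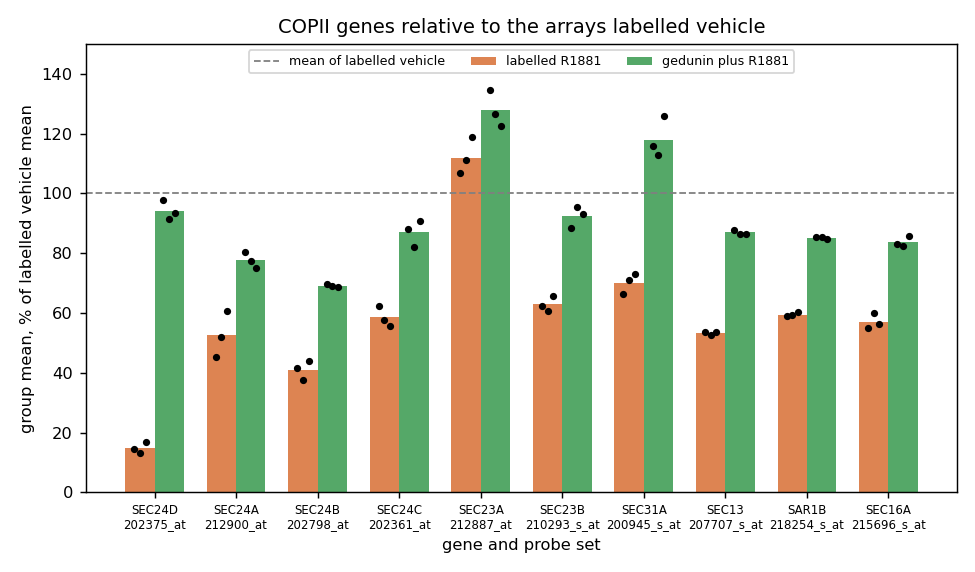
Mean intensity of the groups labelled R1881 and gedunin plus R1881 as a percentage of the mean of the arrays labelled vehicle (dashed line at 100%), for the brightest probe set of each of the 10 genes; dots are the single arrays. SEC24D stands lowest on the arrays labelled R1881, at 14.9%, and SEC23A is the gene with both bars above the line, at 112% and 128%.

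Of the outer cage, SEC31A and SEC13 were both called lower in the first comparison. SEC31A, the rod-forming subunit, measured 545, 571 and 619 on the arrays labelled vehicle, 383, 410.4 and 423 on those labelled R1881 and 669, 653 and 729 with gedunin by probe set 200945_s_at. The arrays labelled R1881 were lowest and, unlike for most members, the gedunin arrays were highest, with no overlap. It was 1.43-fold lower in the first comparison (adjusted p = 8.18e-05) and 1.69-fold higher in the second (adjusted p = 3.14e-06). The third comparison gave 0.24 ± 0.07 (adjusted p = 0.0205), a call that ended without gedunin replicate 3, vehicle replicate 1 or vehicle replicate 2 (adjusted p = 0.092, 0.0926 and 0.0575). The other probe set, 210616_s_at, averaged 574 ± 16.6, 376 ± 19.8 and 619.8 ± 19.0, in the order labelled vehicle, labelled R1881 and gedunin plus R1881. Its log2 differences were -0.61, 0.72 and 0.11, and its difference from labelled vehicle did not pass (adjusted p = 0.218).

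SEC13, the partner of SEC31 that is also a subunit of the nuclear pore and of the GATOR2 complex, had very little spread. Probe set 207707_s_at measured 847, 853 and 835 on the arrays labelled vehicle, 454, 446 and 454 on those labelled R1881 and 743, 731 and 731 with gedunin, where 2 deposited values are identical. The gedunin group lay between the others, and no groups overlapped. SEC13 was 1.87-fold lower on the arrays labelled R1881 than on those labelled vehicle (-0.90 ± 0.05, adjusted p = 1.84e-08), 1.63-fold higher with gedunin (0.70 ± 0.05, adjusted p = 2.86e-07) and at 87.0% of the labelled vehicle mean with gedunin (-0.20 ± 0.05, adjusted p = 0.00892).

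SAR1B, the GTPase that starts coat assembly, and SEC16A, the scaffold of ER exit sites, showed a common order of the groups. SAR1B probe set 218254_s_at measured 1020.5, 1119.8 and 1018 on the arrays labelled vehicle, 622, 623 and 635 on those labelled R1881 and 899, 899 and 892 with gedunin plus R1881. SEC16A probe set 215696_s_at measured 413, 403 and 412 on the arrays labelled vehicle, 225, 246 and 231 on those labelled R1881 and 340.0, 338 and 351 with gedunin plus R1881. For both genes the arrays labelled R1881 were lowest, the gedunin arrays intermediate and the arrays labelled vehicle highest, with no overlap. Log2 differences in the 3 comparisons were -0.75, 0.52 and -0.23 for SAR1B (adjusted p = 3.57e-07, 1.34e-05 and 0.008). They were -0.81, 0.55 and -0.26 for SEC16A (adjusted p = 1.43e-07, 6.32e-06 and 0.00363).

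**Figure D3:**
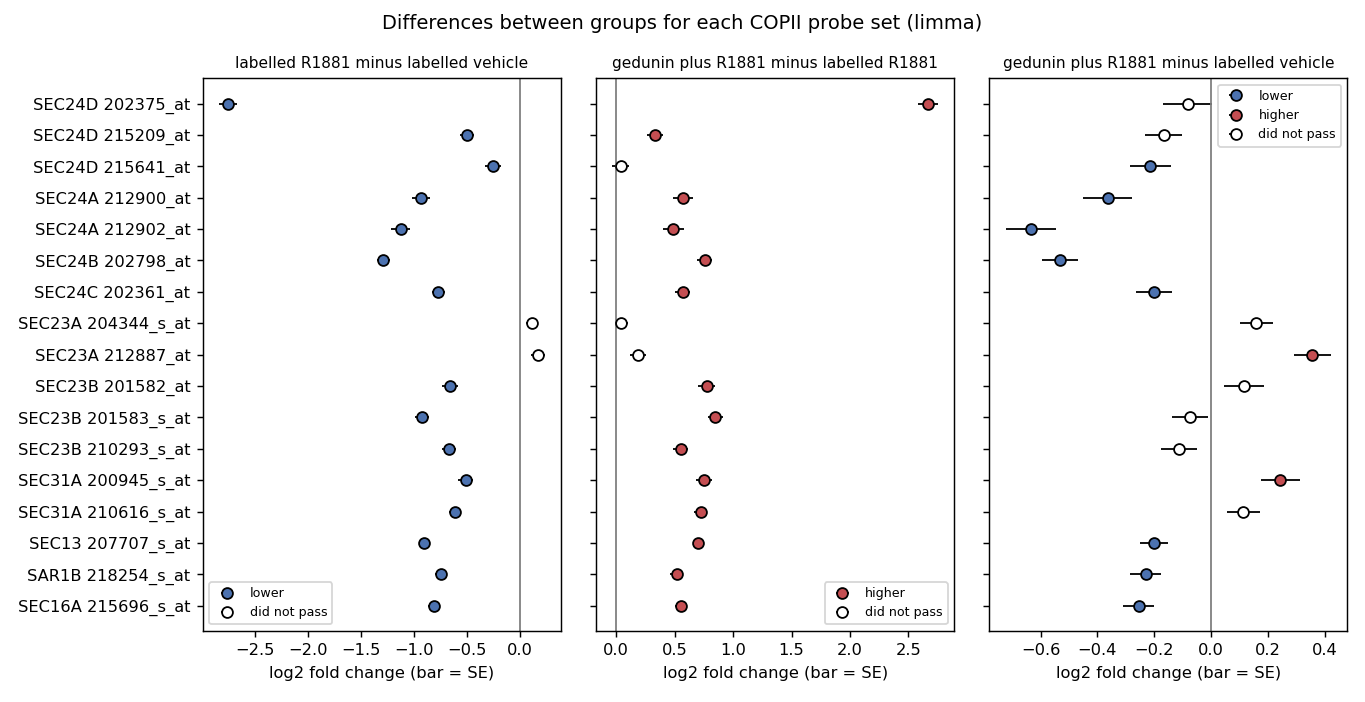
Log2 fold change (limma estimate, bars are SE) of each probe set in the 3 comparisons; filled points passed adjusted p of 0.05, open points did not, and each panel has its own horizontal scale. In the left panel 15 of 17 points are filled and lie below 0, in the middle panel 14 are filled and lie above 0, and in the right panel 8 lie below 0 and 2 above.

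Promoter windows from RefSeq (GRCh38.p14, 250 bases before to 50 after a start site) were given for 9 of the 10 genes, 16 windows in all, for each gene but SEC24D. Both strands were searched for 4 motifs: the ER stress element, the core of the unfolded protein response element TGACGTGG, the cyclic AMP response element TGACGTCA and the NRF2 antioxidant element TGACNNNGC. TGACGTGG was present in 3 of the 16 windows, those of SEC24A, SEC16A and SEC23A, and in 0.729% of the 35116 windows of all genes. TGACNNNGC was present in 4 of 16 and in 13.3% of all, and in SEC24A, SEC16A and SEC23A it overlaps the TGACGTGG match. The ER stress element and TGACGTCA were in 0 of 16, against 0.0769% and 1.85% of all windows. The stretches around the matches are shown for the 4 genes that held one. Capitals mark the TGACGTGG match in the first 3, on the opposite strand in SEC16A, and the TGACNNNGC match in SEC31A.
SEC24A (chr5:134648595-134648624, plus strand): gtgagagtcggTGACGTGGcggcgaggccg
SEC23A (chr14:39103232-39103335, minus strand): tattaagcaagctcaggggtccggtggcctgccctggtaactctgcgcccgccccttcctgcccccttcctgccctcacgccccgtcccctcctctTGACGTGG
SEC16A (chr9:136484716-136484800, minus strand): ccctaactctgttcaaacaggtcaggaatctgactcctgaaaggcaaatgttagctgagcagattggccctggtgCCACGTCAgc
SEC31A (chr4:82900650-82900799, minus strand): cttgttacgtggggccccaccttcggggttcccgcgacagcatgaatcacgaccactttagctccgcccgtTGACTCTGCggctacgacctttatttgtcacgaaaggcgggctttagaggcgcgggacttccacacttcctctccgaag
The SEC24A match begins 179 bases before the start site used for its window, the SEC31A match 159 bases before, and the SEC23A match begins 4 bases before and runs across the start. The SEC16A match lies just inside the transcript. A match of letters is a description and not a measured site, and no test related these matches to the changes.

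Other genes of the route were counted in 7 lists. Over all probe sets, 14.8% were called higher and 12.2% lower in the first comparison. The shares were 12.4% and 11.9% in the second, and 12.9% and 10.6% in the third. All list counts are to be read against these shares. Of the 12 accessory and regulatory COPII genes, 11 were measured by 23 probe sets, of which 4 were higher and 6 lower on the arrays labelled R1881 than on those labelled vehicle, and 8 higher and 0 lower with gedunin than on the arrays labelled R1881. PREB, the exchange factor that loads SAR1 with GTP, was at -0.77 in the first comparison and 0.42 in the second. SAR1A, the paralog of SAR1B, was at -0.48 and 0.53 by 201543_s_at and at -0.29 and 0.25 by 201542_at, while 210790_s_at did not pass in either. MIA3 (TANGO1), which helps load bulky cargo such as collagen, was at -0.51 and 0.20 by 212305_s_at, but its other probe set, 212310_at, did not pass, at -0.08 and 0.02 (adjusted p = 0.586 and 0.931). The largest rise of the list in the second comparison was that of MIA2 probe set 215930_s_at, at 0.81. It was at -0.33 in the first and 0.49 in the third. MIA2 probe sets 204055_s_at and 221177_at lay under the lowest array median and were not called. Not all members followed: PDCD6 (ALG-2), a calcium sensor that binds SEC31A, was higher in the first comparison at 0.34 by 222380_s_at, and CUL3, whose ubiquitin ligase acts on SEC31, at 0.23 by 201371_s_at and 0.26 by 201370_s_at, whose values lay under the lowest array median. Between gedunin plus R1881 and labelled vehicle 4 of 23 were higher and 2 lower, in total near the share over all probe sets. The list's median was 0.04 in the first comparison, 0.11 in the second and 0.10 in the third.

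Cargo receptors bind secretory proteins and enter the vesicles with them. They were counted together with KDELR1 and KDELR3, which return ER proteins from the Golgi. This list had 20 of 26 probe sets lower and 1 higher in the first comparison and 22 higher and 0 lower in the second. Its medians were -0.71 and 0.70. TMED9, a p24 family receptor, was 2.67-fold lower on the arrays labelled R1881 and 2.50-fold higher with gedunin by 205812_s_at. MCFD2, which works with the lectin receptor LMAN1, rose 2.46-fold in the second comparison. CNIH4 was the exception in the first comparison, at 0.27, and had the largest difference from labelled vehicle in the list, 0.74. Against labelled vehicle, 6 cargo receptor probe sets were higher with gedunin and 3 lower, with ERGIC2 lowest at -0.56 and TMED3 at -0.30.

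Tethers and SNAREs that act between the ER and the Golgi, in either direction, had 29 of 43 probe sets lower and 0 higher in the first comparison. They had 30 higher and 0 lower in the second. GOLGA2 (GM130), a Golgi matrix protein, was at -1.32 by 204384_at, -0.96 by 35436_at and -0.56 by 211059_s_at in the first. In the second YIF1A was at 1.12, and the SNARE YKT6 at 1.04 and 0.57 by its 2 probe sets. The COPI coat, which returns vesicles from the Golgi to the ER, was counted together with the ARF regulators GBF1, ARFGAP2 and ARFGAP3. Of their 15 probe sets, 11 were lower and 0 higher, then 11 higher and 0 lower. The coat subunit COPG1 was at -1.18 and 1.23 in the 2 comparisons, and ARFGAP3, an activator of the ARF1 GTPase, at -1.11 in the first. The translocon, through which proteins enter the ER, was counted together with the targeting factors SRP54, SRPRA and SRPRB. This list had 20 of 22 lower and 0 higher, then 21 higher and 0 lower. SSR3, a translocon-associated subunit, was 4.18-fold lower on the arrays labelled R1881 and 3.30-fold higher with gedunin, and the 3 TRAM1 probe sets were at 0.62 to 1.23 in the second.

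Between gedunin plus R1881 and labelled vehicle 12.9% of all probe sets were called higher and 10.6% lower, and the counts below are read against that. Tethers and SNAREs had 7 of 43 probe sets higher and 7 lower, in total somewhat above the background. The COPI list had 0 of 15 higher and 3 lower, in total near the background. The falls were those of the coat subunit ARCN1, at -0.24, and of the regulators ARFGAP3 and GBF1. The translocon had 8 of 22 higher and 4 lower. Medians were -0.01, -0.03 and 0.10 against -0.17 for the 17 COPII probe sets. The 8 rises of the translocon list included the targeting factor SRP54 at 0.40, while all 4 falls were probe sets of SSR1, with 200890_s_at at -0.51. ARFGAP3 was at -0.60 and GBF1, the exchange factor of ARF1, at -0.37. Of these differences between lists none was tested.

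SEC13 is also part of the nuclear pore Y complex and of GATOR2, a regulator of mTORC1. The 10 other measured genes of these complexes had calls in both directions: of 18 probe sets, 6 were higher and 3 lower in the first comparison and 5 higher and 2 lower in the second, with medians of 0.04 and 0.07. Against labelled vehicle 6 were higher with gedunin and 2 lower. NUP107 was at 0.88 and -0.37 and SEH1L at 0.58 and -0.65, opposite in sign to SEC13. All 3 gedunin arrays hold the identical deposited value for NUP107, 175.2. NUP98, whose transcript also encodes the Y complex subunit NUP96, was lower in the first comparison by all 3 probe sets, from -0.90 to -0.72.

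Transcription factors known to act on COPII genes were counted too. Of 7 probe sets for 5 genes, 3 were lower and 0 higher in the first comparison, 5 were higher and 0 lower in the second, and 1 was higher and 2 lower in the third. CREB3L2, a membrane-bound factor that activates SEC23A in cartilage, was at -1.31 and 0.87, CREB3 at -0.76 and 0.65, and XBP1, a factor of the unfolded protein response, at -0.69 and 0.42. ATF6 was not called in the first comparison and was at 0.24 in the second by 203952_at. Neither CREB3L1 probe set was called in limma in any of the 3 comparisons. Of the ER chaperones, DNAJB9 (202842_s_at) was at -2.75 and 2.19 and HSPA5 (BiP) at -0.80 and 0.80, while HMOX1, induced by NRF2, was at 0.03 and 5.67. The HMOX1 values are approximate, because its means for labelled vehicle and labelled R1881, 43.2 and 44.0, lay under the lowest array median. The part of these factors, chaperones and HMOX1 in the COPII results was not tested.

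**Figure D4:**
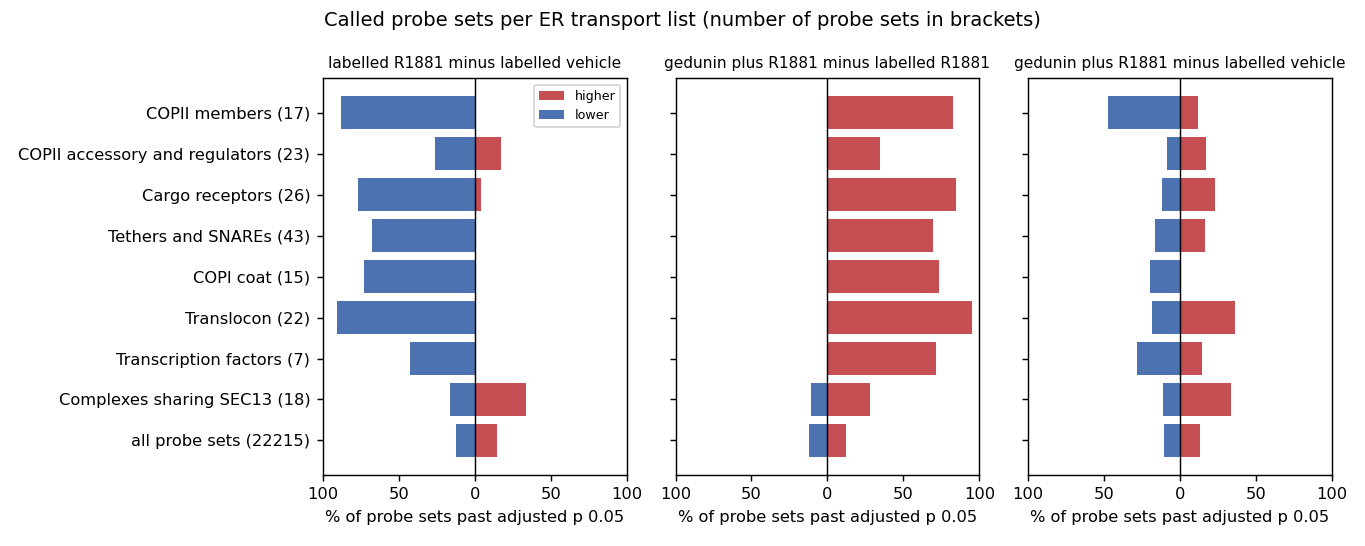
Percentage of probe sets that passed adjusted p of 0.05, higher to the right and lower to the left of 0, for the 17 COPII probe sets, 7 lists of related genes and all 22215 probe sets, in the 3 comparisons; brackets give the number of probe sets. Cargo receptors, tethers and SNAREs, COPI and the translocon lean to the left in the first panel and to the right in the second, and the complexes sharing SEC13 spread to both sides.

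Across the 9 arrays, the genes whose log2 pattern was most like that of SEC24D probe set 202375_at were WFS1 (Pearson r = 0.997), PPIB (0.996), INSIG1 (0.996), TMED10 (0.995) and TMED9 (0.995). WFS1 encodes an ER membrane protein, PPIB an ER peptidyl-prolyl isomerase and INSIG1 a sterol-sensing ER protein. WFS1 averaged 198, 109 and 198 in the groups labelled vehicle, labelled R1881 and gedunin plus R1881, so its change was smaller than that of SEC24D. Within the COPII genes r to SEC24D was 0.98 for SEC13 and SEC23B probe set 201583_s_at, 0.921 for SEC24B and 0.911 for SEC24A probe set 212900_at, and 0.01 and -0.21 for both SEC23A probe sets. The 9 points fall into 3 treatment groups, so these values describe which groups are low and are given without a test. The order at the top is loose: leaving out 1 array at a time kept 2 to 4 of these 5 genes among the top 5.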

How the data were processed

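Total RNA from 9 LNCaP cultures, 3 per group, was labelled and hybridised to Affymetrix arrays. The deposited values are linear-scale intensity values, 1 per probe set and array, made by the authors with RMA (background correction, quantile normalization, summarisation), per the submitters' processing notes; no source used here names its software. RMA forces array distributions to be alike and compresses low values, so folds of dim probe sets are approximate. The files hold no scan dates or slides, so batches were not tested. The arrays' number, not a read depth, limits precision.

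Of 22277 probe sets, 62 controls were left out. The log2 of the intensity was fitted with limma 3.58.1 in R 4.3.3, with 1 coefficient per group over all 9 arrays, no intensity trend and Benjamini-Hochberg adjustment over 22215 probe sets at 0.05. On simulated data with known changes, 22%, 30% and 16% of 1.2-fold changes and 86%, 94% and 92% of 1.5-fold changes were recovered in the 3 comparisons in order, over 22215 probe sets. Each simulation changed 50 probe sets at each of the folds 1.2, 1.5, 2 and 4, far fewer than were called in the data. The adjustment was therefore stricter in the simulation, so these shares do not give the power of the real comparisons. Intervals are 95% from limma's SE. Differences between probe sets or paralogs were tested with an exact two-sided permutation of F over 1680 arrangements of 9 arrays. Probe sets were named from the platform annotation (19064 with 1 symbol, 1043 with several, 2108 with none; symbols checked against RefSeq GRCh38.p14, 12 without a match). No member probe set is annotated to a second gene; probe sequences were not analysed here, so cross-hybridisation between paralogs was not tested.

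All member probe sets were named. Per list and comparison, a rule picked up to 2 called probe sets with the largest rise and 2 with the largest fall. The 5 genes most like SEC24D across arrays and 7 measured genes fixed whatever their values were named too. Some picks of the rule are left out of the text, among them PDCD6 203415_at, CNIH1, RAB2A, RAB1B, GORASP1, COPE, NUP160 and NUP43. HOXB13, ACP3, ARCN1, both CREB3L1 probe sets, the SSR1 falls and further probe sets of named genes were named after their values were seen. The members and lists were chosen with earlier results of these data known. Alternatives were 1 probe set per gene, bright probe sets, an intensity trend, 2-group fits, an offset of 16, a second quantile normalization, a replicate block and leaving out each array. The main fit did not pair arrays by replicate number, and whether the numbers pair them is not settled.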

Additional observations from a re-analysis of the deposited data

How the results depend on the processing

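Taking 1 probe set per gene left 9 of 10 member genes called in the first comparison and 9 in the second (30.3% and 27.4% over all probe sets in that fit), fewer because fewer probe sets were tested, and 68 and 66 called probe sets over the 7 lists in place of 103 and 104. Leaving out 1 array at a time gave 14 to 15 called members in the first comparison, 14 to 15 in the second and 7 to 10 in the third. With a replicate block the member counts were 15, 14 and 9, and the block ended 1 call, that of SEC24D 215641_at in the third comparison. Deviations of same-numbered arrays correlated from -0.10 to 0.14, over 0.1 in 2 of 9 pairs, both of labelled vehicle with labelled R1881. Those of other pairs ran from -0.15 to 0.16. Such weak values neither establish nor exclude a pairing by number. The count of probe-set pairs that differed by group was 1, 2 with the offset, 5 after a second quantile normalization and 0 to 4 without 1 array; the cause was not tested. Of the 5 genes most like SEC24D, 3 remained after a second quantile normalization and 2 to 4 without 1 array. Paralog pairs stayed at 5 to 6 of 7. Of single probe-set values under the alternatives run, 759 kept direction and call, 22 lost a call, 8 gained one and 0 reversed. Calls lost or gained were of SEC24D 215641_at and 215209_at, SEC24C, SEC31A 200945_s_at and both SEC23A probe sets. Signal near the lowest array median limits SEC24D and SEC24A 212902_at on the arrays labelled R1881.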
